A study of Mus musculus with 9 samples.

Results

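The genes followed here are 36 genes of glycolysis and of the response to low oxygen, chosen by symbol from the 19454 mouse genes listed in the deposited tables. They cover glucose uptake, each step from hexokinase to pyruvate kinase, the handling of lactate and pyruvate, the hypoxia-inducible factors with their oxygen sensors, and 4 genes known as targets of those factors. All 36 have a row, and 35 of 36 had enough counts to be tested. The exception was Eno2, the neuronal enolase, whose highest library reached 0.444 CPM (counts divided by the scaled library total, as used by edgeR).

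The libraries were made from haematopoietic stem cells (HSCs) sorted from the bone marrow of wild-type mice, with 1500 cells and 12 PCR cycles per library, in 3 groups of 3. Control libraries carry the name Ctrl, and their labels name no virus, drug or supplement. Inhibition libraries carry the name AAV and come from mice with chemogenetic inhibition of the mPFC and PAG, 2 brain regions, a method in which a designed receptor silences neurons once its drug is given. The third group, named AAV-SPD, had that inhibition together with a spermidine supplement. Silencing, the viral vector and the drug cannot be told apart, since no control for them alone is among the libraries. The labels give no receptor, promoter, drug, dose, age, sex or sort markers, and no source animal is named for any library. The p-values below therefore measure only the spread between these libraries, which may be technical.

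Glycolysis splits glucose into pyruvate in the cytosol. Pyruvate is then either reduced to lactate by lactate dehydrogenase and exported, or carried into mitochondria, where pyruvate dehydrogenase commits it to oxidation and the PDK kinases hold that enzyme back. When oxygen is scarce, prolyl hydroxylases of the EGLN family stop marking HIF-1α and HIF-2α for destruction, and the stabilised factors raise many glycolytic genes. HSCs live in a marrow environment that is low in oxygen, and quiescent HSCs are known for relying on glycolysis. HIF-1α is controlled mainly at the level of protein, which RNA sequencing does not measure.

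Markers of the labelled cell type were uneven between groups. Of 16 HSC and progenitor genes, 10 were higher and 5 lower with inhibition than in control (edgeR, adjusted p under 0.05). Of all tested genes, 36.2% were higher and 36.1% lower. The summed level of the 16 genes was 598 to 612.3 CPM in control, 662.7 to 671.7 with inhibition and 745.3 to 753.7 with spermidine. Procr, the endothelial protein C receptor that marks HSCs, measured 0.125 CPM in control, below the level that 3 counts give in any control library (0.155 to 0.182 CPM), against 4.10 and 7.59 in the other groups. Ly6a, which encodes Sca-1, measured 6.21, 83.5 and 94.5 CPM. Slamf1, which encodes CD150, ran the other way at 105, 17.6 and 13.8 CPM. Genes of other cells moved with the groups too and are given beside the results that follow. In bulk libraries, fewer cells of a type and less RNA per cell cannot be told apart.

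Total counts were 16096276 to 25360256 per library, and the scaling factors between libraries (TMM, which assumes that most genes do not change) were 0.931 to 0.950 in control and inhibition but 1.12 to 1.14 with spermidine. The 36 genes together held 0.110 to 0.113% of all TPM in control, 0.168 to 0.170% with inhibition and 0.152 to 0.156% with spermidine. TPM is scaled for transcript length and depth within a library, so it allows 1 gene to be set beside another.

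Hypoxia-inducible factors bind DNA at a short core sequence, written here as ACGTG or GCGTG. Both were searched on both strands in the 250 bases before each RefSeq start site (GRCm38.p6, the assembly of mm10), and RefSeq gave 48 such windows for 33 of the 36 genes. Bnip3l, Epas1 and Slc2a3 had no window. One or other motif stood in 38 of the 48 windows, or 79.2%, against 38.6% of all 32851 windows in the table. ACGTG alone stood in 23 of them, or 47.9%, against 16.6% of all. The windows of these genes were also richer in G and C, with a median of 60.4% against 52.4% for all windows, and the part of base composition in the motif share was not tested. A palindromic CACGTG counts as 2 matches of ACGTG, 1 on each strand. Windows of 1 gene can overlap, as for Aldoa and Eno1, so some matches stand in more than 1 window. A match describes letters and is not a binding site.

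4 windows are shown because the results below turn on these genes: the paired lactate dehydrogenase genes, the oxygen sensor with the highest fold change under inhibition, and a mitophagy gene that stayed high with spermidine. Capitals mark motif matches on either strand, read 5′ to 3′ along the strand of the gene. The Ldha window lies at chr7:46845554-46845803 (plus strand), inside 1 longer annotated transcript of the gene but outside its exons. The Ldhb window lies at chr6:142507958-142508207, the Egln3 window at chr12:54203875-54204124 and the Bnip3 window at chr7:138909507-138909756, all on the minus strand. The last bases of the Bnip3 window touch an exon of 1 annotated Bnip3 transcript.
Ldha: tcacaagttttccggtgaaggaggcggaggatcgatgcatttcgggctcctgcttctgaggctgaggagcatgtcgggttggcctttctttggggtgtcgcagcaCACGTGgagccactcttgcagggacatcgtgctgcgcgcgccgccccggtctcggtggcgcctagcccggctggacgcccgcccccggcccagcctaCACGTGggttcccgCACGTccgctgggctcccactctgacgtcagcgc
Ldhb: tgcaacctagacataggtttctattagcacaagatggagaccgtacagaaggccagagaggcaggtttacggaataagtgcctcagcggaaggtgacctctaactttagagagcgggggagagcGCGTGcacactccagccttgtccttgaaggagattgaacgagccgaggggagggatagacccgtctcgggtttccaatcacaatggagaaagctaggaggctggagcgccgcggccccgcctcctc
Egln3: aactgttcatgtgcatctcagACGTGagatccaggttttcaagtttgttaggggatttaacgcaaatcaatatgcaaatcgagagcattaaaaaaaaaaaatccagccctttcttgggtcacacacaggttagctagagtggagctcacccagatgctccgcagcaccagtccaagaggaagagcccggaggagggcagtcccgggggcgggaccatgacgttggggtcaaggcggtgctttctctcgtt
Bnip3: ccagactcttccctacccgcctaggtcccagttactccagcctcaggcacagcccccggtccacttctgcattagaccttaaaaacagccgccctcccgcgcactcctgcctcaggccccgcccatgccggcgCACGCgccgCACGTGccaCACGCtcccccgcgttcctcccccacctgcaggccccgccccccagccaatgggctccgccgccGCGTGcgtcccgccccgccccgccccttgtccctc
The Ldha window shown held 5 matches of ACGTG, from 2 palindromes and 1 single match. RefSeq gives Ldha a further window (chr7:46846832-46847081), not shown, with none of ACGTG and 1 of GCGTG, the same counts as in the Ldhb window; the Ldha window with more matches was chosen for display. The Ldhb window held none of ACGTG and 1 of GCGTG. The Egln3 window held 1 of ACGTG, close to its far end, and the Bnip3 window held 2 of ACGTG and 3 of GCGTG. Of all windows, 6.58% held 3 or more matches of either motif. The 4 windows shown were chosen by gene and are not a sample to set against that share.

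The 36 genes differed widely in level. Per length, Gapdh, Bnip3l, Aldoa and Ldha were over 100 TPM in control (316, 249, 112 and 116 TPM), and with inhibition the same count of 4 genes passed 100 TPM. Another 6 genes averaged under 1 TPM in control and 6 with inhibition, among them Eno2 and Epas1 in both.

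**Figure D1:**
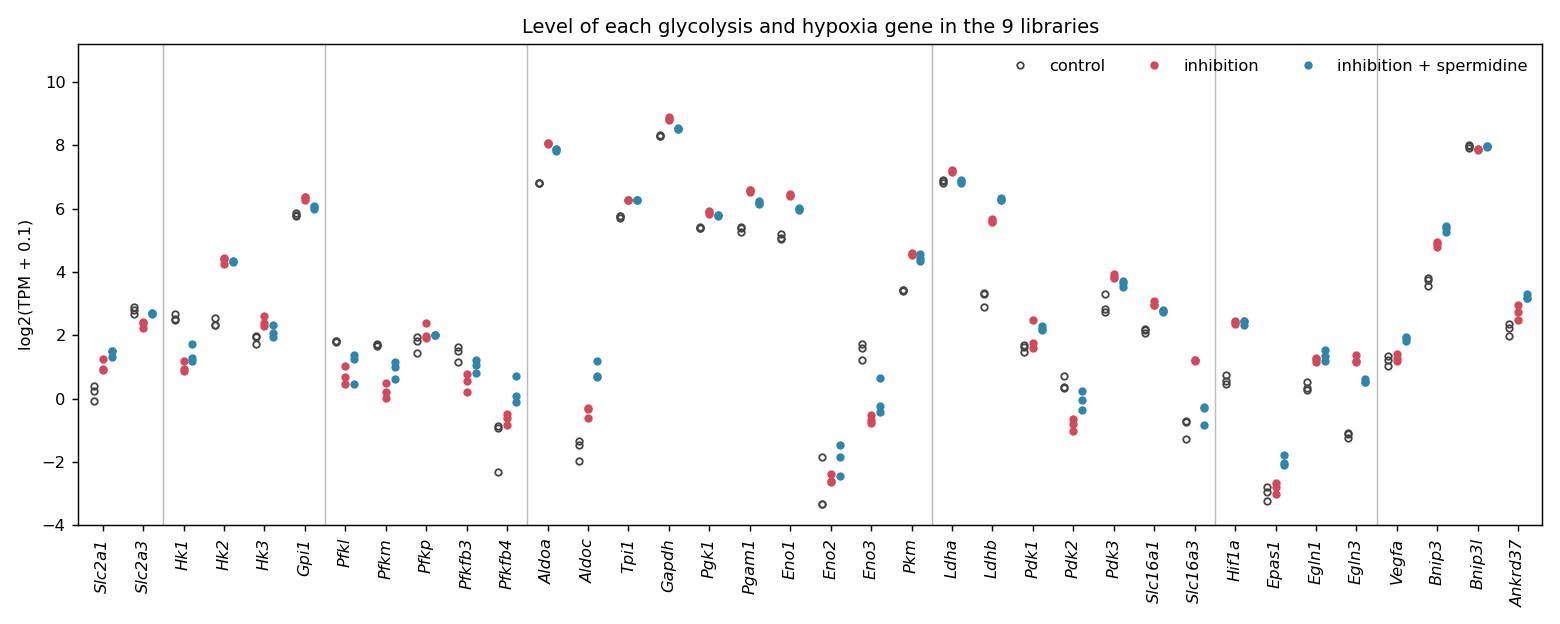
Level of each of the 36 genes as log2(TPM + 0.1) on the vertical axis, 1 point per library, in control (open circles), inhibition (red) and inhibition with spermidine (blue); grey lines separate the roles from glucose uptake on the left to hypoxia targets on the right. Gapdh is the highest glycolytic gene in all 3 groups, and Ldhb is the gene of the lactate group whose 3 groups stand clearly apart in the order control, inhibition, spermidine.

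With inhibition, 24 of the 35 tested genes rose against control, 7 fell and 4 did not pass the test (edgeR quasi-likelihood test, adjusted p under 0.05). That is 88.6% called, where 72.4% of all 14461 tested genes were called, so much of the count is shared with the rest of the transcriptome. Called higher were 36.2% of all genes and called lower 36.1%. The median log2 fold change of the 35 was 0.52, against 0.021 over all tested genes. At a fold change of at least 2, 12 of the 35 were higher and 5 lower, against 15.0% and 14.0% of all genes. For 31 of the 35 genes all 3 libraries of 1 group lay above all 3 of the other (24 higher, 7 lower), as for 74.5% of all genes (37.4% and 37.1%).

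With spermidine added, 7 of the 35 rose against inhibition alone, 18 fell and 10 did not pass, or 71.4% called against 58.1% of all genes (29.1% higher and 28.9% lower). The median was -0.17, against 0.027 over all genes. This split depends on how libraries are scaled. When they are scaled by total count, the median gene shifts by 0.261 toward higher with spermidine, 13 of the 35 were higher and 14 lower, and all genes split 7711 higher against 1793 lower in place of 4213 and 4183. On log2(TPM + 1) with limma, 14 were higher and 9 lower, where all genes split 7015 higher against 1229 lower. The 9 libraries give no means of choosing between these scalings, so falls with spermidine are read beside what total count scaling gives. At a fold change of at least 2, 1 gene was higher and 2 were lower, against 9.45% and 3.24% of all genes. Groups were free of overlap for 27 of the 35 (8 higher, 19 lower), as for 62.8% of all genes (32.1% and 30.7%).

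**Figure D2:**
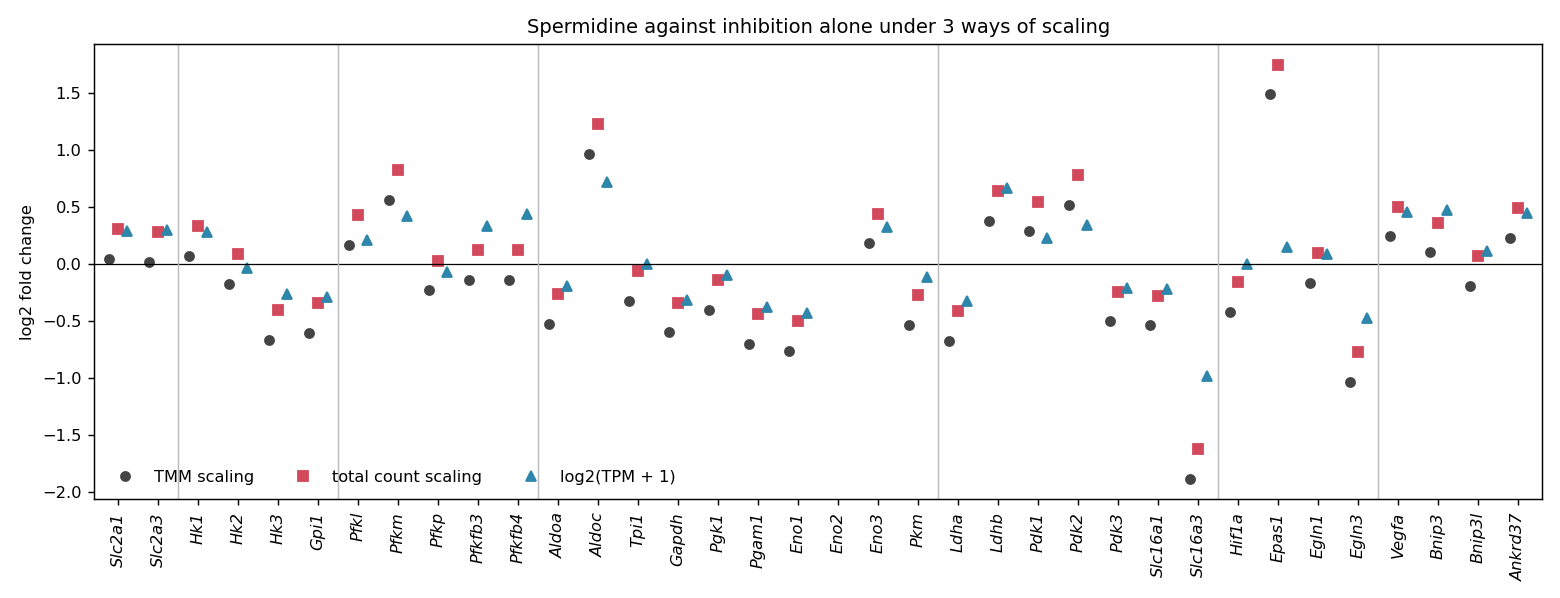
Log2 fold change of each gene for spermidine against inhibition (vertical axis) with TMM scaling (circles), with total count scaling (squares) and on log2(TPM + 1) (triangles), 3 libraries per group. Squares lie above circles for all 35 genes, since total counts shift the median gene by 0.261, while Slc16a3, Egln3, Eno1 and Pgam1 stay below 0 and Ldhb above 0 in all 3.

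For spermidine against inhibition, 9 of the 35 genes were called lower with TMM, with total counts and on both TPM scales (pseudocounts 1 and 0.1). These were Gpi1, Aldoa, Gapdh, Pgam1, Eno1, Ldha, Slc16a1, Slc16a3 and Egln3. Another 6 were called higher on all of them, namely Pfkm, Aldoc, Ldhb, Epas1, Vegfa and Bnip3. For inhibition against control the same 4 settings agreed on 21 higher and 6 lower genes, and for spermidine against control on 19 higher and 5 lower. The share of all tested genes called in the same direction on all 4 was not computed. Whether these counts exceed that share is therefore not known.

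Against control, the spermidine group had 19 of the 35 genes higher, 9 lower and 7 not passing, or 80.0% called against 78.1% of all genes (41.0% higher and 37.1% lower). The median was 0.34 against 0.060 over all genes. At least 2-fold, 8 were higher and 4 lower, against 20.7% and 12.2% of all genes. Groups were free of overlap for 29 of the 35 (20 higher, 9 lower), as for 79.8% of all genes (42.1% and 37.7%). Total count scaling shifted the median gene by 0.263 and gave 23 higher and 9 lower, where all genes split 7705 higher against 3682 lower. With limma on log2(TPM + 1) the counts were 23 and 5, where all genes split 7729 against 2797. Each pair of comparisons shares a group of libraries, so their values are set side by side below and no overlap is counted.

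**Figure D3:**
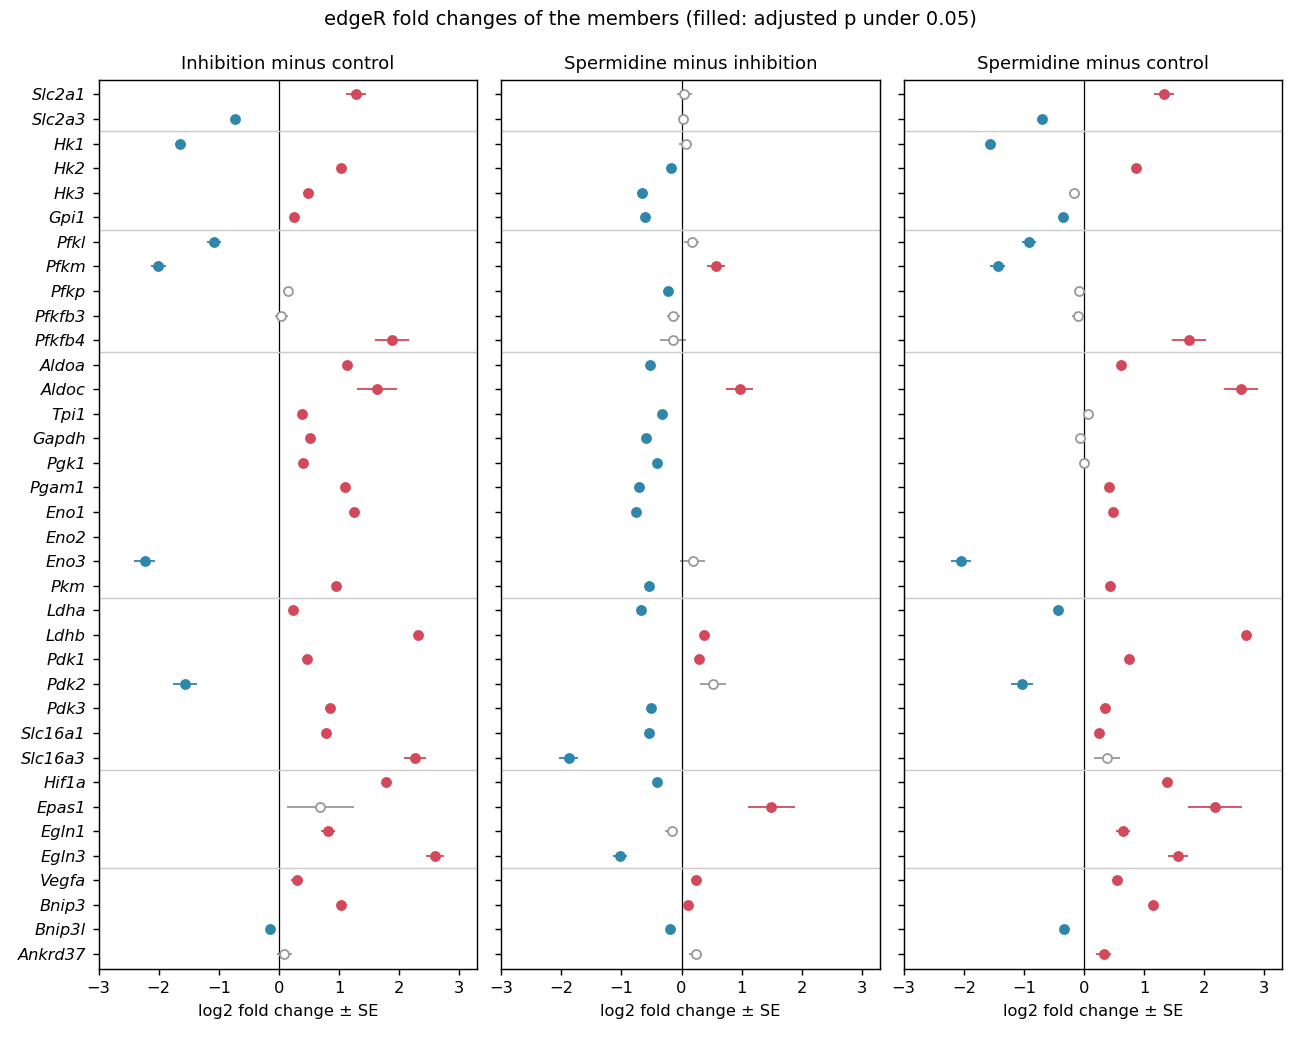
Log2 fold change of each gene (points) with its standard error (bars, horizontal axis) in the 3 comparisons, from edgeR with TMM scaling, 3 libraries per group; red points are called higher, blue points called lower, and open points did not pass an adjusted p of 0.05. Most points lie right of 0 for inhibition against control, and 18 of 35 lie left of 0 and are called for spermidine against inhibition.

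The 2 glucose transporters moved in opposite directions. Slc2a1, which encodes GLUT1 (chr4:119108711-119137983, plus strand), measured 1.82, 2.31 and 2.68 CPM in the control libraries, 4.55, 6.40 and 5.50 with inhibition and 5.20, 5.99 and 6.14 with spermidine. Every library of the 2 inhibited groups lay above every control library. The log2 fold change was 1.28 (SE 0.16) for inhibition against control, and with spermidine it stood at 0.05 against inhibition and did not pass (adjusted p = 0.768), but limma on log2(TPM + 1) called it higher (0.29, adjusted p = 0.0215). Slc2a3, which encodes GLUT3, was lower with inhibition by a log2 change of -0.73 (SE 0.048), with means of 57.9 ± 2.94 and 34.9 ± 0.494 CPM (SD, n = 3). With spermidine against inhibition it did not pass with TMM (0.020, adjusted p = 0.743). It was called higher there with total counts (0.28) and with limma on log2(TPM + 1) (0.30). Slc2a3 was the more abundant of the pair per length, and Slc2a1 went from 13.2% ± 1.66 (SD, n = 3) of their joint TPM in control to 28.0% ± 2.69 with inhibition. In counts that gain was 9.75 percentage points in place of 14.8.

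The hexokinases, which trap glucose in the cell, changed in make-up. Hk1, the broadly expressed form, fell from 23.5, 22.4 and 22.3 CPM in control to 7.25, 7.27 and 7.35 with inhibition, and measured 7.58, 6.50 and 9.30 with spermidine. Hk2, the inducible form, rose from 37.4, 36.1 and 36.3 to 76.5, 74.9 and 73.2 CPM and measured 65.5, 69.0 and 64.6 with spermidine. The groups did not overlap for either gene against control. The log2 fold change with inhibition was -1.64 (SE 0.095) for Hk1 and 1.03 (SE 0.041) for Hk2. With spermidine against inhibition, Hk1 did not pass with TMM (0.074, adjusted p = 0.575). Hk1 was called higher there with total counts (0.34) and with limma on log2(TPM + 1) (0.29, adjusted p = 0.0497). Per length, Hk2 made up 35.6% ± 2.71 (SD, n = 3) of hexokinase TPM in control, 74.0% ± 1.22 with inhibition and 74.7% ± 1.71 with spermidine, while Hk1 went from 39.9% to 6.88% and 9.51%.

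Hk2 carries a caveat of its own. The ratio of its counts to its TPM, which follows the transcript length assigned to it, was lower by -0.90 on the log2 scale with inhibition than in control, so its mean TPM rose from 5.21 to 20.6, more steeply than its counts. In shares of counts, the gain of Hk2 among the hexokinases with inhibition was 24.1 percentage points in place of 38.4. With spermidine against inhibition, Hk2 was called lower at -0.17 (SE 0.038), and with total count scaling it was 0.090 higher and did not pass (adjusted p = 0.0621).

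Hk3, the myeloid hexokinase, measured 12.8 ± 0.928, 17.8 ± 1.28 and 11.3 ± 0.754 CPM (SD, n = 3), a rise of 0.49 (SE 0.079) on the log2 scale with inhibition and a change of -0.66 (SE 0.078) with spermidine. With total counts the second was -0.40 and still called, but on log2(TPM + 1) it was -0.26 and did not pass (limma, adjusted p = 0.0501). Gpi1, glucose-6-phosphate isomerase, rose by 0.24 (SE 0.035) with inhibition and fell by 0.60 with spermidine. Against control, Gpi1 was called lower with spermidine at -0.36, but its TPM was higher (55.9 in control and 66.0 with spermidine), and limma on log2(TPM + 1) called it higher by 0.24.

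Phosphofructokinase commits sugar to glycolysis, and 2 of its 3 genes were lower with inhibition. Pfkm, the muscle form, measured 9.39, 9.44 and 8.87 CPM in control, 1.78, 2.53 and 2.45 with inhibition and 3.39, 3.05 and 3.87 with spermidine. The 3 groups did not overlap, with spermidine between the others. Pfkm fell by 2.01 on the log2 scale with inhibition (SE 0.13) and rose by 0.57 (SE 0.15) with spermidine, which left it at -1.44 (SE 0.12) against control. Pfkl, the liver form, fell too, with means of 8.94 ± 0.239 and 4.25 ± 0.650 CPM (SD, n = 3) and a log2 change of -1.09 (SE 0.12), and measured 4.70 CPM with spermidine. Against inhibition that did not pass with TMM (0.17, adjusted p = 0.259) but was called higher with total counts (0.43).

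Pfkp, the platelet form, measured 10.4, 11.5 and 9.88 CPM in the 3 groups and did not pass with inhibition (adjusted p = 0.118). It passed there when control replicate 3 was left out (adjusted p = 0.0364). Its call with spermidine against inhibition (-0.23, adjusted p = 0.0223) was lost without inhibition replicate 2 (0.0572), without spermidine replicate 2 (0.0844) and in DESeq2 (0.0694), and with total count scaling the value was 0.033. Pfkp supplied 33.0% ± 3.53 of phosphofructokinase TPM in control (SD, n = 3), 61.0% ± 2.27 with inhibition and 50.7% ± 3.19 with spermidine. The summed TPM of the 3 forms was 9.04 to 10.4 in control and 6.22 to 8.13 with inhibition.

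The bifunctional enzymes Pfkfb3 and Pfkfb4 set the level of fructose 2,6-bisphosphate, an activator of phosphofructokinase. Pfkfb4 was scarce, at 0.485, 0.483 and 0.568 CPM in control, 1.97, 1.66 and 2.15 with inhibition and 1.25, 2.11 and 1.88 with spermidine, and all inhibited libraries lay above control (log2 fold change 1.89 (SE 0.28)). Its TPM did not pass for inhibition against control (limma on log2(TPM + 1), adjusted p = 0.188), and its assigned length differed by 0.94 on the log2 scale. Pfkfb3 measured 5.38, 5.61 and 5.05 CPM and passed in none of the 3 comparisons. In TPM the same gene was called lower with inhibition, at -0.63 on log2(TPM + 1), beside an assigned length that differed by 1.08.

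Lower glycolysis, from aldolase to pyruvate kinase, was higher with inhibition in 8 of the 9 genes tested, and the other, Eno3, was lower, where 36.2% of all tested genes were higher and 36.1% lower. The summed level of its 10 genes was 1015 to 1045 CPM in control, 1742 to 1824 with inhibition and 1184 to 1232 with spermidine, with no overlap between groups. The single genes below have a log2 fold change from edgeR for inhibition against control first.

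Aldoa, the main aldolase (chr7:126795234-126800751, minus strand), measured 218, 219 and 215 CPM in control, 462, 483 and 487 with inhibition and 322, 336 and 340.4 with spermidine. It rose by 1.14 (SE 0.031) and then stood -0.52 against inhibition. Eno1, the ubiquitous enolase, measured 82.9, 82.6 and 83.6 CPM in control, 192, 195 and 202 with inhibition and 112, 117 and 119 with spermidine. Eno1 rose by 1.24 (SE 0.034) and stood at -0.76 (SE 0.033) for spermidine against inhibition. Pgam1, phosphoglycerate mutase, measured 104, 106 and 103, then 224, 221 and 228, then 134, 142 and 138 CPM. It rose by 1.11 (SE 0.032) and stood at -0.70 with spermidine. In these 3 genes the spermidine libraries lay between the other groups without overlap, and all 3 remained called above control, at 0.62, 0.48 and 0.41.

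Pkm, pyruvate kinase, followed the same order of groups (32.3 ± 0.891, 62.7 ± 3.22 and 43.3 ± 1.36 CPM; SD, n = 3) and rose by 0.96 (SE 0.048) with inhibition. Gapdh, Pgk1 and Tpi1 rose less. Gapdh, the glyceraldehyde-3-phosphate dehydrogenase, went from 378, 373 and 360.4 CPM in control to 513, 538 and 548 with inhibition and measured 338, 358 and 361 with spermidine, where it overlapped control. Its log2 fold change was 0.52 (SE 0.034) and then -0.60 (SE 0.034). Pgk1, phosphoglycerate kinase, changed by 0.40 (SE 0.032) and then by -0.40 (SE 0.031). With TMM scaling its spermidine and control means were 109 and 109 CPM. Tpi1, triose phosphate isomerase, changed by 0.39 (SE 0.033) and then by -0.32 (SE 0.032).

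The direction with spermidine against inhibition held under total count scaling for all 7 lower glycolysis genes called lower, of which 6 kept their call. Tpi1 was the exception, at -0.062 (adjusted p = 0.109), and in TPM it was equal in the inhibition and spermidine groups (76.8 ± 0.344 and 77.1 ± 0.244). Eno1 and Pgam1 were also called in TPM, while Pgk1 and Pkm were not (limma on log2(TPM + 1), adjusted p = 0.0853 and 0.0965). Against control, Gapdh with spermidine was -0.072 and not called with TMM (adjusted p = 0.0637) but 0.19 higher and called with total count scaling. Pgk1 and Tpi1 were likewise not called against control with TMM. Both were called higher there with total counts (0.27 and 0.33) and with limma on log2(TPM + 1) (0.39 and 0.51).

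Near-identical copies may share reads with 4 of these genes, though those of Aldoa and Eno1 held at most 0.128% and 1.11% of the count of their gene. The table lists 61 Gapdh copies that together held 1.44 to 5.21% of the Gapdh count, and 2 Pkm copies that held 5.31 to 10.5% of the Pkm count. The copies of Gapdh were 1.44 to 2.63% in control and 4.57 to 5.21% with spermidine, and those of Pkm 10.3 to 10.5% in control and 5.31 to 6.75% with inhibition. These shares count only reads assigned to the copies. How many reads were assigned to the wrong one of gene and copy was not measured, so both genes are uncertain by an unknown amount.

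Eno3 ran against the other lower glycolysis genes with inhibition, and Aldoc did so with spermidine against inhibition. Eno3, the muscle enolase, measured 4.73, 4.51 and 4.44 CPM in control, 0.922, 0.872 and 1.10 with inhibition and 1.21, 1.10 and 0.941 with spermidine. It fell by 2.24 on the log2 scale (SE 0.17) and with spermidine was at 0.18 against inhibition, which did not pass (adjusted p = 0.529). Eno3 held 7.49% ± 1.29 of enolase TPM in control (SD, n = 3), 0.623% ± 0.0579 with inhibition and 1.49% ± 0.723 with spermidine. Aldoc, the brain aldolase, was the 1 lower glycolysis gene called higher in both comparisons, from 0.243, 0.536 and 0.568 CPM to 1.78, 1.20 and 1.40 and 2.38, 3.48 and 2.55, with log2 fold changes of 1.64 (SE 0.33) and 0.97 (SE 0.22). It stayed a minor form, at 1.75 TPM with spermidine beside 233 TPM of Aldoa.

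Lactate dehydrogenase showed a change in make-up that continued in the spermidine group. Ldha encodes the muscle-type chain, usually tied to lactate production, and Ldhb the heart-type chain, usually tied to lactate use. Ldhb (chr6:142490249-142507957, minus strand) measured 11.8, 14.1 and 13.8 CPM in control, 65.0, 63.6 and 69.3 with inhibition and 84.8, 85.5 and 87.4 with spermidine. The 3 groups stood apart, and the spermidine libraries were the highest. The log2 fold change was 2.31 (SE 0.058) for inhibition against control, 0.38 (SE 0.045) for spermidine against inhibition, and 2.70 (SE 0.057) for spermidine against control.

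Ldha (chr7:46841475-46855627, plus strand) measured 294, 301 and 285 CPM in control, 339, 336 and 357 with inhibition and 208, 217 and 224 with spermidine. Here the inhibition libraries were the highest. Its log2 fold change was 0.23 (SE 0.035) with inhibition and -0.67 (SE 0.035) with spermidine, and against control it stood at -0.44 (SE 0.035) with spermidine. Total count scaling kept the directions in the comparisons with spermidine, whereas in TPM Ldha was nearly equal in control and spermidine libraries (116 ± 3.91 and 117 ± 3.71).

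The share of Ldhb in the joint TPM of the pair was 6.14%, 7.66% and 7.63% in the control libraries, 24.8%, 25.1% and 25.2% with inhibition and 40.6%, 39.5% and 40.0% with spermidine. A share within a library does not depend on the scaling between libraries. Each step exceeded the spread within groups many times over, with means of 7.14% ± 0.868, 25.0% ± 0.207 and 40.0% ± 0.536 (SD, n = 3). The exact permutation test of 3 against 3 libraries gave p = 0.10 (two-sided) for each pair of groups, the smallest it can give. In counts in place of TPM the gains were 11.8 and 12.4 percentage points, where TPM gave 17.9 and 15.0. Total TPM of the 2 genes averaged 125 in control, 195 with inhibition and 195 with spermidine. The equal total of the 2 inhibited groups holds in TPM but not in CPM. There the mean of Ldha was 344 with inhibition and 216 with spermidine, beside 66.0 and 85.9 for Ldhb.

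**Figure D4:**
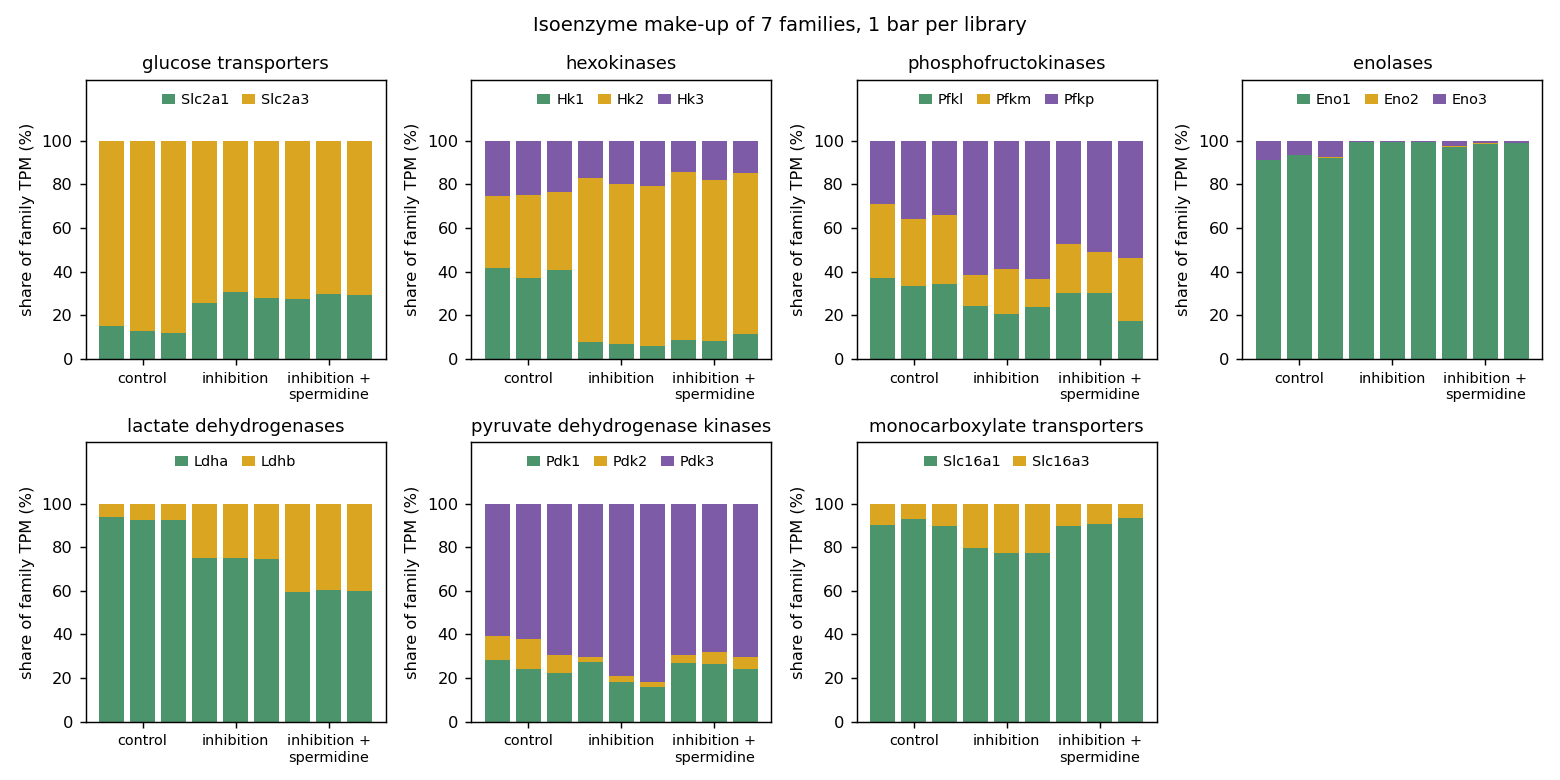
Share of each isoenzyme in the TPM of its family (vertical axis, percent), 1 stacked bar per library, in 7 families. The Ldhb part of the lactate dehydrogenase bars grows from 7.14% in control to 25.0% with inhibition and 40.0% with spermidine, while the Slc16a3 part of the transporter bars is wider only in the 3 inhibition libraries.

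Both lactate transporters were lower with spermidine than with inhibition, as Ldha was and unlike Ldhb. Slc16a3 encodes MCT4, a transporter of strongly glycolytic cells that exports lactate, and it is known as a target of HIF-1. It measured 1.46, 0.912 and 0.929 CPM in control, 4.79, 5.44 and 5.35 with inhibition and 1.45, 1.53 and 1.22 with spermidine. The inhibition libraries stood alone, and the spermidine libraries overlapped control. The log2 fold change was 2.26 (SE 0.18) and then -1.88 (SE 0.16), the lowest value of the 35 genes for spermidine against inhibition. Against control, Slc16a3 with spermidine was at 0.38 (SE 0.22) and did not pass (adjusted p = 0.128), but it passed without control replicate 1 (0.60, adjusted p = 0.0395) and with total count scaling (0.64, adjusted p = 0.0141).

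Slc16a1, which encodes the widespread transporter MCT1, showed the same order of groups with a smaller range, at 32.1, 29.3 and 30.4, then 56.4, 49.9 and 52.4, then 35.6, 37.2 and 36.3 CPM. Its log2 fold changes were 0.79 (SE 0.052) and -0.53 (SE 0.05). Slc16a3 held 9.17% ± 1.82 of the TPM of the pair in control (SD, n = 3), 21.8% ± 1.13 with inhibition and 8.70% ± 1.97 with spermidine. In counts these steps were 5.54 and -5.28 percentage points, where TPM gave 12.7 and -13.1.

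The kinases that restrain pyruvate dehydrogenase also shifted. Pdk3, the most abundant of the 3 per length, rose from 20.8, 21.8 and 25.1 CPM in control to 40.0, 39.3 and 42.5 with inhibition (log2 fold change 0.84 (SE 0.068)) and measured 29.2, 26.7 and 30.4 with spermidine (log2 fold change -0.50 against inhibition). With total counts that step of Pdk3 was -0.24 and still called, but on log2(TPM + 1) it was -0.21 and did not pass (limma, adjusted p = 0.178). Pdk1, a known HIF-1 target, rose in both comparisons, from 13.7 ± 0.300 to 18.9 ± 0.312 and 23.1 ± 0.405 CPM (SD, n = 3). In TPM neither step of Pdk1 passed (adjusted p = 0.179 and 0.249, limma on log2(TPM + 1)). Pdk2 fell from 4.19, 5.42 and 3.97 CPM in control to 1.23, 1.74 and 1.55 with inhibition (log2 fold change -1.56 (SE 0.2)) and measured 1.73, 2.23 and 2.77 with spermidine. That last step, 0.52 (SE 0.22), stood at the threshold (adjusted p = 0.05), and a fit with replicate number as a block gave 0.54 with an adjusted p of 0.0337. The step was also called with total counts (0.78, adjusted p = 0.00442) and on log2(TPM + 1) (0.35, limma, adjusted p = 0.0117). Of the fits that left out 1 library, 2 called it and 4 did not.

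Among the factors that sense and answer low oxygen, Hif1a RNA was higher in both inhibited groups. Hif1a (chr12:73901375-73947530, plus strand) measured 9.43, 8.44 and 9.92 CPM in control, 34.8, 30.6 and 30.9 with inhibition and 24.1, 24.2 and 23.5 with spermidine. The log2 fold change was 1.79 (SE 0.073) with inhibition and 1.37 (SE 0.074) for spermidine against control. For spermidine against inhibition it was -0.42 (SE 0.061) with TMM, and it was lower under total count scaling as well, but TPM was level (5.22 ± 0.208 and 5.24 ± 0.262; SD, n = 3). Epas1, which encodes HIF-2α, was near the floor, at 0.379, 0.0625 and 0.231 CPM in control, 0.331, 0.445 and 0.190 with inhibition and 0.879, 0.804 and 1.17 with spermidine. It was called higher with spermidine against both other groups (1.49 (SE 0.39) and 2.19 (SE 0.45)), and its highest group stayed at 0.157 TPM.

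Both EGLN genes rose with inhibition, and both are known to be induced by HIF as a feedback. Egln3, which encodes PHD3, measured 1.21, 1.07 and 1.24 CPM in control, 6.64, 6.77 and 7.95 with inhibition and 3.39, 3.68 and 3.38 with spermidine. The groups did not overlap, and the spermidine libraries lay between the others. Its log2 fold change of 2.60 (SE 0.15) was the highest of the 35 genes with inhibition, and it fell by 1.03 with spermidine (SE 0.11), with total count scaling as with TMM. Egln1, which encodes PHD2, the main oxygen sensor, rose by 0.81 (SE 0.12), from 4.79 ± 0.478 to 8.46 ± 0.468 CPM (SD, n = 3), and measured 7.53 ± 0.978 CPM with spermidine, which did not pass against inhibition (adjusted p = 0.19), except when spermidine replicate 1 was left out (adjusted p = 0.041).

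The 4 other hypoxia targets did not move as a block. Bnip3, a mitophagy receptor, measured 31.7, 30.4 and 33.1 CPM in control, 68.2, 64.9 and 62.2 with inhibition and 68.4, 70.6 and 70.8 with spermidine, and both inhibited groups lay clear of control (log2 fold change 1.03 (SE 0.046) with inhibition). Its step with spermidine was 0.11 (SE 0.042) (adjusted p = 0.0396) and lost its call with the replicate block (adjusted p = 0.0558), in DESeq2 (0.357) and when any of the inhibition libraries 1 to 3, or spermidine replicate 2 or 3, was left out (0.0533 to 0.224). Its close relative Bnip3l, an abundant gene that also removes mitochondria from maturing red cells, fell by 0.15 with inhibition (SE 0.028). Bnip3l was called lower with spermidine against inhibition at -0.19 with TMM, but called higher at 0.070 with total count scaling.

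Vegfa, the vascular growth factor, measured 8.03, 6.57 and 7.51 CPM in control, 8.63, 9.60 and 8.89 with inhibition and 10.3, 11.4 and 10.6 with spermidine. It was called higher with inhibition at 0.30 (SE 0.094), a call lost without control replicate 2 (adjusted p = 0.0734) or inhibition replicate 2 (0.0597). On log2(TPM + 1) that value was 0.069 and did not pass (limma, adjusted p = 0.433). Its step with spermidine, 0.25 (SE 0.086), was lost in DESeq2 (adjusted p = 0.19), without inhibition replicate 1 (0.118) or 3 (0.0698), and without spermidine replicate 2 (0.105). The spermidine group against control was 0.55 (SE 0.091), called in each fit that left out 1 library. Ankrd37, an ankyrin-repeat gene used as a hypoxia marker, measured 4.37, 4.66 and 5.44 CPM. With TMM it was called for 1 comparison, spermidine against control (0.32 (SE 0.12)), and not without control replicate 2 (adjusted p = 0.169), without spermidine replicate 1 (0.0556) or in DESeq2 (0.135). The step from inhibition to spermidine was called higher with total counts (0.49, adjusted p = 0.00126) and on log2(TPM + 1) with limma (0.45, adjusted p = 0.00989), and the latter also called it higher with inhibition (0.45, adjusted p = 0.00817).

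Summed genes of 4 other blood cell lists were, like lower glycolysis, highest with inhibition. Neutrophil and B cell sums were lowest in control, as for lower glycolysis. In CPM, monocyte sums with spermidine overlapped control and T and NK sums were lowest with spermidine. In TPM, monocyte sums with spermidine (557.4 to 582.5) lay above control (454.3 to 476.5), and T and NK sums with spermidine (1341 to 1441) overlapped control (1427 to 1486). All 15 neutrophil granule genes were higher with inhibition than in control and all 15 were lower with spermidine than with inhibition. Of all tested genes, 36.2% were higher with inhibition and 28.9% lower with spermidine against inhibition. The summed level of the 15 genes was 5388 to 5570 CPM in control, 61711 to 63447 with inhibition and 22175 to 22791 with spermidine, and none of the 15 was at 0 in a whole group. Monocyte and macrophage genes summed to 567 to 584.5 CPM in control, 1115 to 1134 with inhibition and 542.2 to 567.5 with spermidine, and 8 of 11 tested were higher with inhibition. B and plasma cell genes summed to 87.1 to 88.1 CPM, then 4625 to 5039, then 1755 to 1895, with 9 of 10 tested higher with inhibition. T and NK cell genes summed to 1303 to 1385 CPM, then 1913 to 2025, then 1019 to 1096.

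Sums of 2 other lists were highest in control. Megakaryocyte and platelet genes summed to 3036 to 3061 CPM in control, 167 to 177.7 with inhibition and 177.9 to 187.3 with spermidine, and all 10 were lower with inhibition. Erythroid genes summed to 3430 to 3491 CPM in control, 1301 to 1336 with inhibition and 1200 to 1252 with spermidine, while of 11 single erythroid genes 5 were higher and 6 lower with inhibition. Among all tested genes 36.2% were higher and 36.1% lower with inhibition. Neutrophils are known as strongly glycolytic cells. The part of these other cells in the changes of the glycolysis and hypoxia genes was not tested. Leaving 224 genes of other cells out of the computation of the scaling factors gave 24 higher and 7 lower with inhibition and 7 higher and 18 lower with spermidine, the same counts. That setting changes only the scaling. Any reads from other cells stay in the counts of each gene, so it cannot show their part.

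**Figure D5:**
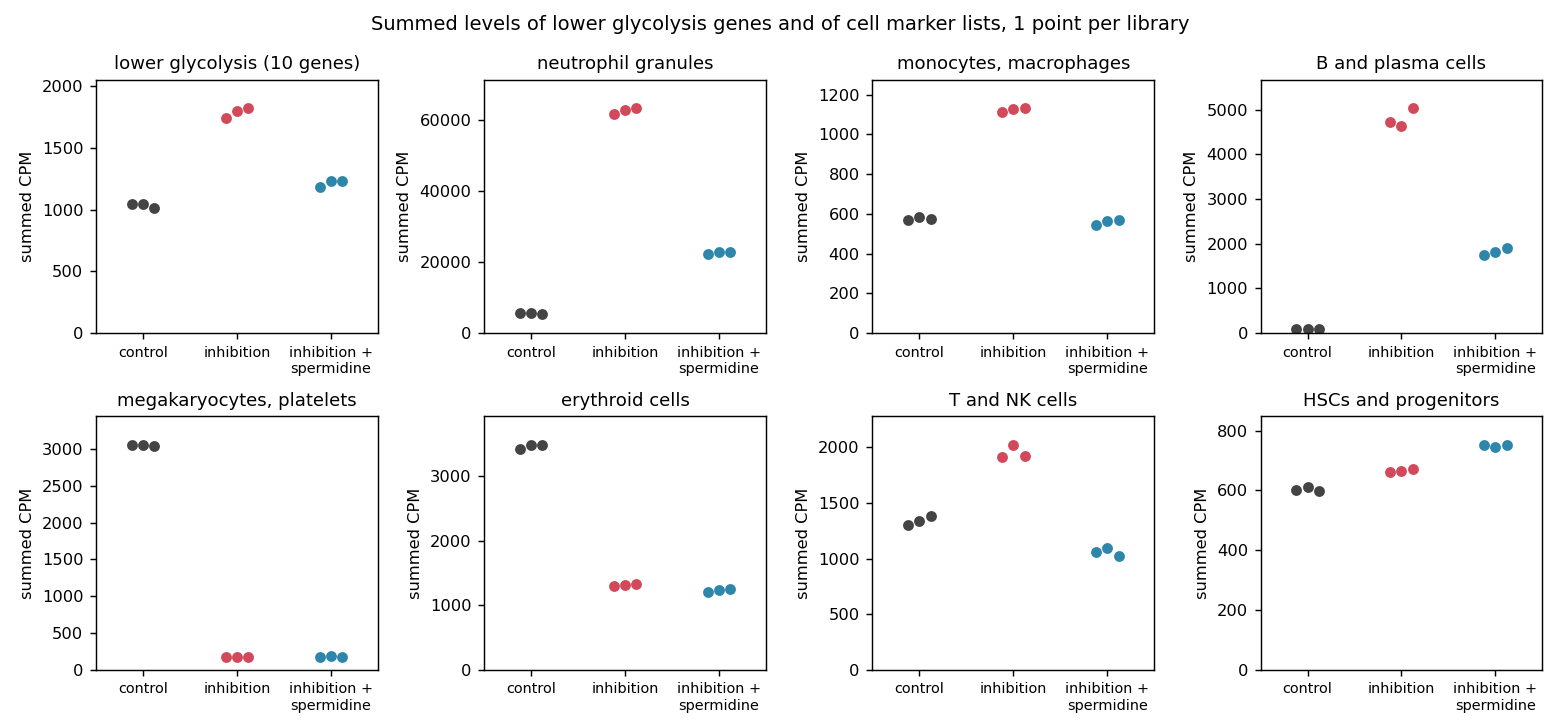
Summed CPM (vertical axis, starting at 0) of the 10 lower glycolysis genes and of 7 lists of cell marker genes, 1 point per library and 3 libraries per group. Lower glycolysis, neutrophil, monocyte, B and plasma, and T and NK sums are highest with inhibition, while megakaryocyte and erythroid sums are highest in control.

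Another 84 genes of the same pathways were listed with the 36, and both sets were chosen with earlier results of these data known. The contrast between the sets therefore describes the lists and is not a test. Calls with inhibition were split more evenly among the 84 genes. Of these 82 were in the table and 75 were tested, and 38 were higher and 32 lower with inhibition, 15 higher and 37 lower with spermidine against inhibition, and 29 higher and 32 lower with spermidine against control. Their median for inhibition against control was 0.13, beside 0.52 for the 36 genes' tested members and 0.021 for all genes. With spermidine against inhibition the median was -0.21, beside -0.17 and 0.027. The counts with spermidine turned with the scaling, an alternative applied to these genes after seeing the data. Total counts gave 27 higher and 13 lower against inhibition and 41 and 26 against control, and limma on log2(TPM + 1) gave 26 and 12, then 39 and 22. The shares of all genes called with TMM, given above, were 36.2% and 36.1% with inhibition and 29.1% and 28.9% for spermidine against inhibition. Splits of all genes under the other scalings stand above, beside the counts of the 36 genes.

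The pentose phosphate pathway, which branches from glucose-6-phosphate to make NADPH and ribose, had 4 of 7 genes higher and 3 lower with inhibition, and 7 of 7 lower with spermidine against inhibition. With total counts 5 of the 7 were lower and 1 was higher with spermidine, as on log2(TPM + 1); that 1 was Pgls, the lactonase of the pathway, at 0.13 and 0.18. G6pdx, its rate-limiting glucose-6-phosphate dehydrogenase, measured 12.5 CPM in control, 32.9 with inhibition and 12.2 with spermidine, with log2 fold changes of 1.39 (SE 0.065) and -1.44 (SE 0.063). With total counts the second was -1.18 and still called. Pgd, a later dehydrogenase of the pathway, stood at -0.96 (SE 0.075) for spermidine against inhibition, and at -0.69 with total counts, still called. Tkt, transketolase, went the other way with inhibition (-0.47 (SE 0.05)).

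Genes that carry pyruvate into mitochondria and oxidise it had 9 of 10 higher and none lower with inhibition, and 6 of 10 lower and none higher with spermidine against inhibition. That second count turned with the scaling: total counts gave 1 lower and 4 higher, and log2(TPM + 1) gave 1 lower and 3 higher. Pdha1, a subunit of pyruvate dehydrogenase, measured 43.6 CPM in control and 78.2 with inhibition, a log2 rise of 0.84 (SE 0.046). Mpc1, a subunit of the mitochondrial pyruvate carrier, was at -0.50 (SE 0.031) for spermidine against inhibition, and with total counts it was -0.24 and still called. Side enzymes of glycolysis split 8 higher and 8 lower of 17 tested with inhibition. Among them Tigar, which lowers fructose 2,6-bisphosphate, rose by 2.14 (SE 0.15), and Adpgk, an ADP-dependent glucokinase, by 1.96 (SE 0.052).

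Regulators of the HIF pathway had 4 of 13 higher and 8 lower with inhibition. Arnt, the partner subunit of both HIFs, rose by 0.60 (SE 0.068), while Egln2, the third EGLN sensor, fell by 1.04 (SE 0.12). Other hypoxia targets split 13 higher and 13 lower of 28 tested with inhibition, and 9 higher and 10 lower with spermidine against inhibition, or 13 and 2 with total counts. Vldlr, a lipoprotein receptor, rose by 5.50 (SE 0.12) on the log2 scale, with means of 0.822 and 36.9 CPM, and Gys1, glycogen synthase, was lower at -2.70 (SE 0.082), with means of 91.1 and 13.8 CPM.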

How the data were processed

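RNA was measured by low-input polyadenylated RNA sequencing in 9 libraries of sorted mouse HSCs, 3 per group. Per the submitters' processing notes, the tools were STAR 2.6.1d, HTSeq 0.10.0, Trim Galore 0.6.2 and edgeR 3.24.3 with build mm10, in no stated role or order. The authors deposited estimated counts per gene, not scaled between libraries, of which 48.2% are whole to within 1e-06; how the others came to be fractional is not given in the sources used here. The authors also deposited TPM for the same genes, scaled within a library for length and depth. Listed genes have a summed count of at least 5.

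Estimated counts were rounded and tested in R 4.3.3 with edgeR 4.0.16 (quasi-likelihood test, TMM factors, edgeR's default filter on low counts, 1 fit of all 9 libraries, 14461 of 19454 genes kept). P-values were adjusted by Benjamini-Hochberg over all tested genes, with a threshold of 0.05. CPM values use the TMM factors. A count of 0 allows up to 0.117 to 0.184 CPM (3 counts), and this floor covers counting error only, since PCR copies are not independent molecules. No strand-specific step is stated, so reads of a gene and of an antisense neighbour cannot be told apart. DESeq2 1.42.0, limma 3.58.1 on log2(TPM + pseudocount), other scalings and filters, a replicate block and leaving out each library were alternatives. On log2(TPM + 1) the change of low genes is understated. Shares within enzyme families were compared between libraries by an exact permutation test (two-sided), which cannot go below 0.10 with 3 against 3.

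All 36 genes are named, and of 84 other pathway genes those with the 2 highest and 2 lowest called fold changes per list with a mean of at least 5 CPM could be named. The members and all lists were chosen with earlier results of these data known. The edgeR step was tested on simulated data. Coordinates are gene bounds from GENCODE M21 (mm10, 1-based). Same-numbered libraries did not deviate together (residual correlations of -0.0753 to 0.0891), so no block was used. Replicates differed by more than counting noise (mean chi-square per gene of 2.45 to 7.75).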

Additional observations from a re-analysis of the deposited data

How the results depend on the processing

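For inhibition against control, the counts of 24 higher and 7 lower genes were within 1.5 times under every alternative run, and leaving out 1 library gave 30 to 32 called in place of 31. For spermidine against inhibition that range was 22 to 27 in place of 25, and for spermidine against control 27 to 30 in place of 28. The fit with the replicate block gave the same counts (24 and 7, 7 and 18, 19 and 9); it ended the call of Bnip3 and began that of Pdk2, both for spermidine against inhibition, as given above.

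Scaling had the widest effect. For spermidine against inhibition, 13 genes were higher with total counts, 14 higher and 9 lower on log2(TPM + 1), and 11 higher and 9 lower on log2(TPM + 0.1). In those settings all genes split 7711 higher against 1793 lower, 7015 against 1229, and 6924 against 1111. For spermidine against control, 5 were lower on both TPM scales, beside 2797 (pseudocount 1) and 2676 (pseudocount 0.1) of all genes. With total counts the sign turned for spermidine against inhibition in Hk2 (0.090), Pfkp (0.033), Pfkfb3 (0.12), Pfkfb4 (0.13), Egln1 (0.097) and Bnip3l (0.070), and against control in Hk3 (0.089), Pfkp (0.18), Pfkfb3 (0.17) and Gapdh (0.19). On log2(TPM + 1) and log2(TPM + 0.1) it turned for inhibition against control in Pfkfb3 (-0.63 and -0.92). For spermidine against inhibition it turned in Pfkfb3 (0.33 and 0.52), Pfkfb4 (0.44 and 0.88), Tpi1 (0.0052 and 0.0053), Hif1a (0.0028 and 0.0032), Egln1 (0.094 and 0.13) and Bnip3l (0.11 and 0.11). Against control it turned in Hk3 (0.19 and 0.24), Gpi1 (0.24 and 0.24), Pfkp (0.22 and 0.28), Gapdh (0.22 and 0.22), Ldha (0.0077 and 0.0078) and Bnip3l (0.016 and 0.016). Apart from total counts (by construction a shift of all genes), the cause was not tested.

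Other sign changes concerned values near 0. Slc2a3 for spermidine against inhibition was -0.016 in DESeq2 and -0.027 with no filter on low counts. With total counts Slc2a3 was called higher there (0.28), as on both TPM scales (0.30 and 0.35). Pgk1 for spermidine against control was -0.016 in DESeq2, -0.0019 with TMM factors computed without genes of other cells, -0.049 with no filter and -0.0060 with only the 2 groups compared. With total counts Pgk1 was called higher there (0.27), as on both TPM scales (0.39 and 0.40). When 1 library was left out, Pfkfb3 (-0.043 to 0.072) and Ankrd37 (-0.033 to 0.17) for inhibition against control crossed 0, as did Pgk1 for spermidine against control (-0.026 to 0.0074). For spermidine against inhibition Slc2a1 (-0.085 to 0.18), Slc2a3 (-0.0040 to 0.049), Hk1 (-0.056 to 0.19) and Pfkfb4 (-0.32 to 0.068) crossed 0, and so did the TPM shares of Slc2a1 (-0.27 to 2.4 percentage points) and Hk2 (-0.28 to 1.4).

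Shares of counts in place of TPM moved the steps in percentage points. With inhibition they were 9.75 for Slc2a1, 24.1 for Hk2, -4.71 for Eno3, 11.8 for Ldhb and 5.54 for Slc16a3. With spermidine against inhibition they were 2.78 for Hk2, 12.4 for Ldhb, 11.7 for Pdk1 and -5.28 for Slc16a3. Depth limits Eno2, Epas1, Aldoc, Pfkfb4, Slc16a3 and Egln3, whose control libraries hold few counts each.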
